A study of Mus musculus with 60 samples.

Results

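The mesothelial marker genes are 7 genes that pick out the flat cells covering the lung surface, namely Msln, Upk3b, Upk1b, Wt1, Lrrn4, Muc16 and Gpm6a. They were found by symbol among the 45037 non-control probe sets, of which 12 carried a member's symbol. Where a gene had several, the one that was brightest on average over the 60 arrays stood for it, so that all 7 members were measured among 18193 genes. The rule used names and mean levels and not the difference between exposed and control mice. RNA came from 1 lung lobe, the right diaphragmatic one, of each of 60 male mice of the Balb/c strain, with 1 array per mouse. SPIO mice had inhaled an aerosol of superparamagnetic iron oxide nanoparticles for 4 h by nose-only exposure. CON mice were sham controls that breathed the same humidified helium, oxygen and filtered air mixture without particles, after the same acclimation to the restraint tubes. Lungs of 5 SPIO and 5 CON mice were taken at 0, 6, 24, 48, 96 and 168 h after exposure. Mice due at 168 h lived in metabolism cages on a liquid diet after SPIO exposure. Whether the sham mice of that time did so too is not stated separately. Mice due at 96 h had been placed in a plethysmograph, in both arms. The age of the mice is not given in the labels. The array values are on the log2 scale and come from RMA, which corrects background, equalizes the distribution of values between arrays and combines the probes of a probe set.

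Mesothelium is a single layer of flat epithelial-like cells that lines the pleural, pericardial and peritoneal cavities, and its visceral pleural part wraps each lung lobe. These cells keep the surface slippery by secreting fluid and lubricating molecules, and they can take on a fibroblast-like shape after injury. In a piece of whole lobe they are a minor cell type at the edge of the tissue. In such bulk tissue, fewer cells of a type and less RNA per cell cannot be told apart.

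The members fall into groups by role. Msln encodes mesothelin, a surface protein held by a lipid anchor, and Muc16 encodes the large membrane mucin that binds it. Upk3b and Upk1b encode uroplakins, membrane proteins better known from the lining of the bladder. Lrrn4 and Gpm6a encode membrane proteins first described in neurons, and Wt1 encodes a zinc finger transcription factor of the embryonic and adult mesothelium. The highest-mean probe sets were 1460238_at for Msln, 1432358_at for Muc16, 1454881_s_at for Upk3b, 1439760_x_at for Upk1b, 1435648_at for Lrrn4, 1456741_s_at for Gpm6a and 1425995_s_at for Wt1.

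The RefSeq promoter table for GRCm38.p6 held 4 of the 7 members, Upk3b, Lrrn4, Muc16 and Gpm6a. The 250 bases before the start listed there are shown for Upk3b (chr5:136038246-136038495, plus strand), Lrrn4 (chr2:132880863-132881112, minus strand) and Muc16 (chr9:18674604-18674853, minus strand). These genes moved together across mice more closely (r = 0.85 to 0.96) than Gpm6a did with them (r = 0.59 to 0.68). The whole Lrrn4 gene spans chr2:132866686-132894010, so its listed start and window lie inside the gene. The Muc16 gene ends at 18674821, so its window overlaps the gene. Each is written 5′ to 3′ on the strand of its gene, with capitals at matches on either strand to GGAATG, the core recognised by TEAD factors, to GNGTGGGNG, of the type read by WT1 and EGR zinc fingers, or to TATAAA, the TATA box.
Upk3b: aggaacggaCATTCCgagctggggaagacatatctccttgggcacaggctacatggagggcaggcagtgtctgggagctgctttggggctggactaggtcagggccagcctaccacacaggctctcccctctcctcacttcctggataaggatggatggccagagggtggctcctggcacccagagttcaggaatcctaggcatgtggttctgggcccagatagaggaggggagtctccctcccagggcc
Lrrn4: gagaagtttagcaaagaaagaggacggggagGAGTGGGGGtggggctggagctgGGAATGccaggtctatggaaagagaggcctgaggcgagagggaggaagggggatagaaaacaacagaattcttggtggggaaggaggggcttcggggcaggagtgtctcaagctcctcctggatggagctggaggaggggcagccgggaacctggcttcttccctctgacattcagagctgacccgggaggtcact
Muc16: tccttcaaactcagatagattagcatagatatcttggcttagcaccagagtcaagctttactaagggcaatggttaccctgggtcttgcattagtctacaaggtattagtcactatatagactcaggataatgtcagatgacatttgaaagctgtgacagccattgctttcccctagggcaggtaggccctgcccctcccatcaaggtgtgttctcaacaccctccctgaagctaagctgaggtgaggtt
Upk3b held 1 match, to the TEAD core on the opposite strand. Lrrn4 held 2 matches that did not overlap, both on the strand of the gene. The zinc finger type began 219 bases and the TEAD core 196 bases before the listed start. Muc16 held 0 matches to these letters. For Gpm6a, not shown, the window at chr8:54779184-54779433 held 1 match, to the TEAD core on the strand of the gene. Its window at chr8:54954478-54954727 held 1 match, to the TATA box on the opposite strand. Among 32841 promoters of the same length, 12.6% held GGAATG, 12.7% GNGTGGGNG and 12.4% TATAAA, so that such matches are common, and a match is a description of the letters only.

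The arrays were alike in scale, with medians between 5.54 and 5.64 and correlations of at least 0.973 between any 2 arrays, and no 2 columns were identical. Among the CON arrays of 0 h, replicate 1 stood apart. Its Xist value, from the noncoding RNA of the inactive X chromosome, was 11.94, against 5.16 to 6.02 on the other arrays, and its albumin (Alb) value was 14.02, against 5.27 to 11.35. In replicate 3 of SPIO at 24 h the mean of 3 Y-linked genes was 5.6, against 6.77 to 7.97 elsewhere. The Xist value of that array was 5.38, within the 5.16 to 6.02 above. All mice were labelled male. The first array goes against that label by its Xist value, while its Y-linked mean lay within the 6.77 to 7.97 above. The second goes against it only by its low Y-linked mean. Values without them are given below where a call turned on them.

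The level of the mesothelial genes differed far more between single mice of the same group than that of most genes. The residual SD, the spread of mice around their own group mean on the log2 scale with 48 degrees of freedom, was 1.25 for Upk3b, 1.01 for Lrrn4 and 0.82 for Msln, where the median of all genes was 0.18. These 3 values lay at the 99.7th, 99.6th and 99.3rd percentile of all genes. The spread of Muc16 was 0.54, of Upk1b 0.41 and of Wt1 0.39, at the 98.4th, 96.7th and 96.3rd percentile. Gpm6a was the steadiest member at 0.28, the 89.5th percentile. The mean levels of Muc16 (4.86), Wt1 (5.2) and Lrrn4 (5.52) lay below the lowest array median of 5.54.

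Over all 60 mice, Upk3b ran from 3.91 in CON replicate 5 at 0 h to 10.01 in CON replicate 3 at 6 h, a 68.5-fold range. Lrrn4 spanned 27.0-fold and Msln 15.9-fold, while Gpm6a spanned 2.98-fold. The CON mouse with the highest Upk3b value, replicate 3 at 6 h, was also the highest of all mice for Msln (9.05), Lrrn4 (8.27), Muc16 (6.51) and Gpm6a (10.77). Replicate 4 of SPIO at 0 h was the highest for Upk1b (7.48) and Wt1 (6.95). The lowest Msln (5.07) and Lrrn4 (3.52) values were both in replicate 3 of SPIO at 168 h. The 12 groups left between 61.3% (Gpm6a) and 83.0% (Upk1b) of each member's variation within groups, and the median gene 66.5%.

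**Figure D1:**
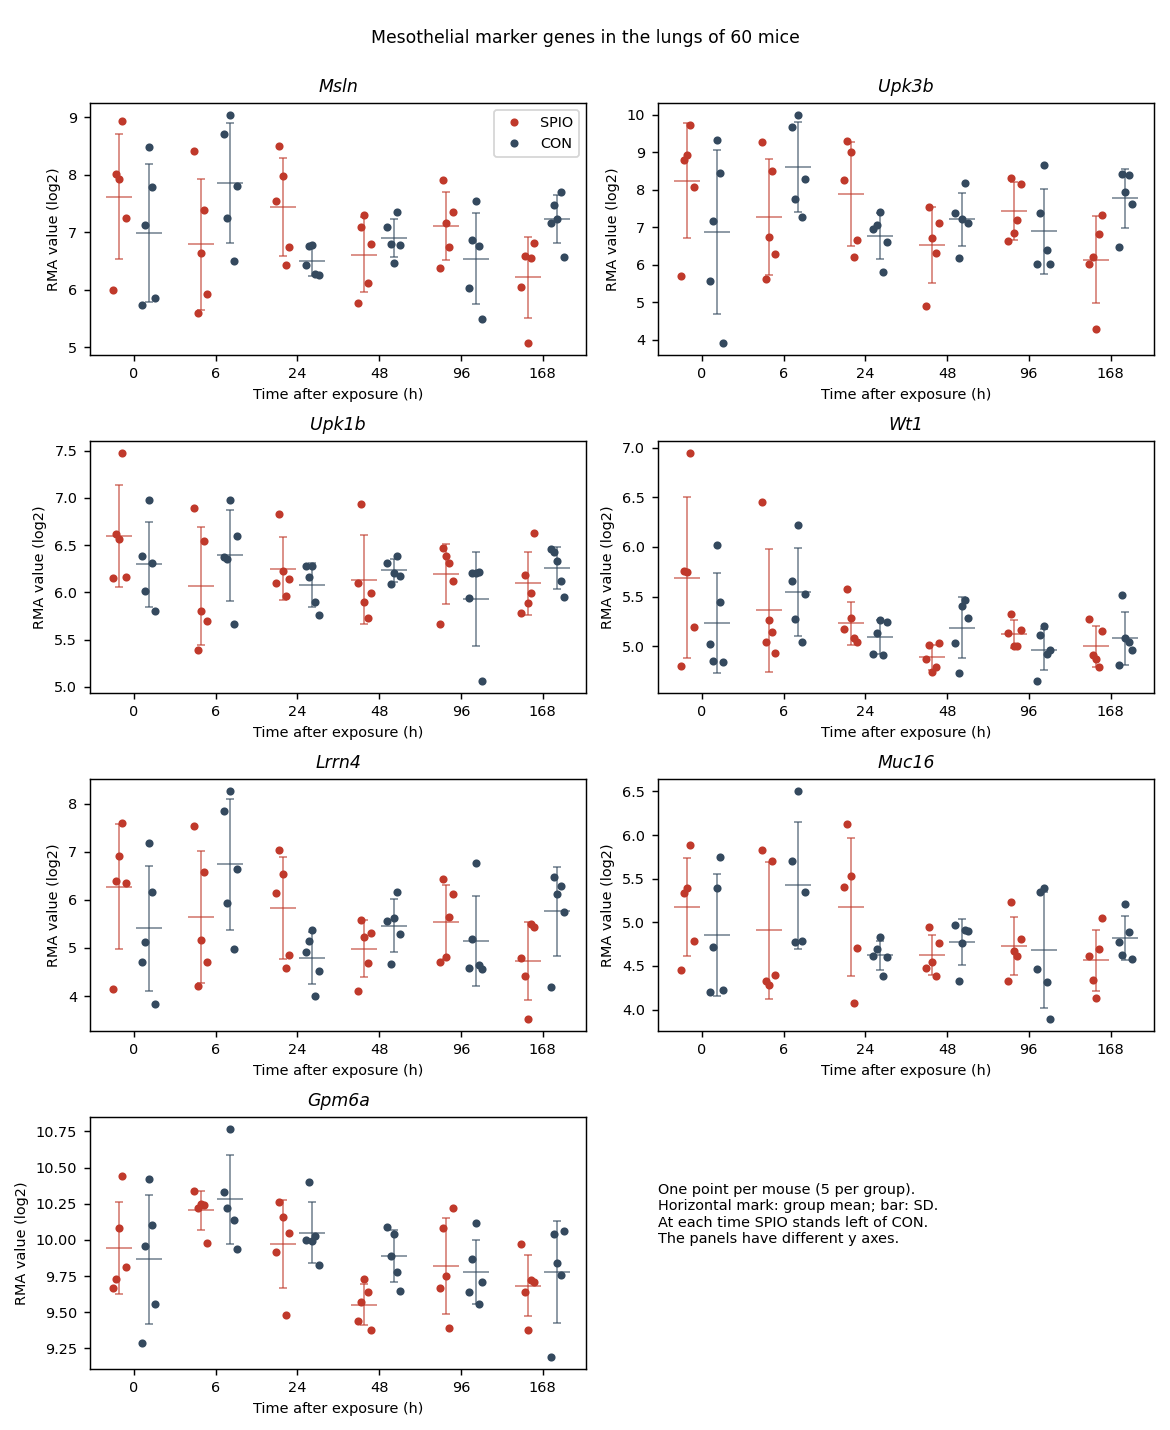
RMA values (log2) of the 7 genes in each of 60 mice by time after exposure (h), SPIO red and CON dark blue, with the group mean as a horizontal mark and the SD as a bar (5 mice per group, separate y axes). SPIO and CON mice overlapped for every gene at every time, and Upk3b ran from 3.91 to 10.01.

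The first question was whether inhaled SPIO shifted these genes against the time-matched sham mice. No member passed limma's test at any time. At an adjusted p under 0.05 over all genes, 0 of 7 members were called at each of the 6 times, where the share of all genes called was 3.67%, 1.17%, 23.9%, 12.5%, 1.41% and 2.19% from 0 to 168 h. The lowest adjusted p among the members was, in the same order of times, 0.32, 0.36, 0.17, 0.2, 0.63 and 0.26.

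At an unadjusted p under 0.05, limma marked 0, 1, 0, 0, 0 and 2 of the 7 members at the 6 times in order, which were Msln at 6 h and Msln and Upk3b at 168 h. The same mark fell on 17.7%, 11.9%, 35.2%, 26.5%, 14.3% and 16.8% of all genes. The methods' test, an analysis with unequal variances followed by Tukey's comparison, called 0 of 7 members at each time and 2.79%, 1.55%, 11.6%, 6.91%, 1.72% and 2.07% of all genes. The SPIO and CON mice overlapped for each member at each time, whereas 4.25%, 3.36%, 11.4%, 7.68%, 4.11% and 3.86% of all genes had groups that did not overlap.

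The direction of the fitted differences turned from one time to the next in 6 of the 7 members, while Gpm6a was lower in SPIO at 6, 24 and 48 h alike. SPIO mice averaged higher than CON mice in 7 of 7 members at 0 h, in 6 of 7 at 24 h (Gpm6a was the exception) and in 7 of 7 at 96 h. They averaged lower in 7 of 7 at 6, 48 and 168 h. The median log2 difference, SPIO minus CON, was 0.45, -0.51, 0.55, -0.3, 0.26 and -0.25 from 0 to 168 h, while the median over all genes lay between 0.01 and 0.09. The members were correlated within mice, as described below, so that the 7 signs of a time are not separate observations.

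Mesothelin had values of 6.05, 6.58, 5.07, 6.55 and 6.82 in SPIO mice at 168 h, against 7.17, 7.48, 7.23, 7.70 and 6.57 in CON mice. Replicate 5 of CON lay within the SPIO range, and the other CON mice lay above it. The difference in Msln was -1.02 (SE 0.5, 95% CI -2.01 to -0.02), a ratio of 0.495, with limma's adjusted p = 0.29 and a two-sided exact permutation p = 0.024. With 5 mice against 5, the smallest p such a permutation test allows is 0.0079, and this p is not adjusted for the number of genes.

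Upk3b at 168 h showed the same order of groups. Its values were 6.02, 6.22, 4.28, 6.83 and 7.33 in SPIO mice and 6.48, 8.43, 7.94, 8.39 and 7.62 in CON mice. One CON mouse, replicate 1, fell among the SPIO mice. The Upk3b difference was -1.63 (SE 0.76, 95% CI -3.15 to -0.11), a ratio of 0.322, with an adjusted p = 0.26 by limma and an exact permutation p = 0.032.

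The groups overlapped more in Lrrn4 at 168 h. SPIO mice had 4.80, 4.41, 3.52, 5.49 and 5.44, and CON mice had 4.18, 6.48, 6.11, 6.29 and 5.74. The lowest CON mouse lay below 4 of the 5 SPIO mice. The mean difference of Lrrn4 was -1.03 (SE 0.61, limma adjusted p = 0.4). The remaining members at 168 h differed by -0.25 (Muc16), -0.16 (Upk1b), -0.09 (Gpm6a) and -0.08 (Wt1).

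At 6 h the mice of both arms were widely scattered. Msln was 8.42, 5.59, 6.64, 7.39 and 5.93 in SPIO mice, against 8.72, 7.24, 9.05, 6.50 and 7.80 in CON mice. Upk3b was 9.28, 5.61, 6.74, 8.51 and 6.29 in SPIO mice, against 9.68, 7.75, 10.01, 7.27 and 8.29 in CON mice. In both genes the SPIO arm held 1 mouse, replicate 1, near the top of the CON range and 3 mice near or below its bottom.

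The Msln difference at 6 h was -1.07 (SE 0.5, 95% CI -2.07 to -0.08, limma adjusted p = 0.36, exact permutation p = 0.17). For Upk3b it was -1.31 (SE 0.76, adjusted p = 0.52 by limma), and for Lrrn4 -1.1 (SE 0.61, adjusted p = 0.5 by limma). Muc16 (-0.51), Upk1b (-0.33), Wt1 (-0.18) and Gpm6a (-0.08) differed by less, in the same direction. Without replicate 3 of CON, the mouse with the highest values, Lrrn4 differed by -0.71 and Muc16 by -0.24. Without replicate 1 of SPIO, Lrrn4 differed by -1.57 and Muc16 by -0.75.

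At 24 h the CON mice were close together and the SPIO mice were not. Msln was 7.55, 8.50, 7.98, 6.43 and 6.74 in SPIO mice and 6.43, 6.76, 6.78, 6.28 and 6.25 in CON mice, with SDs of 0.86 and 0.26. Lrrn4 was 6.14, 7.03, 6.53, 4.59 and 4.86 in SPIO mice and 4.91, 5.15, 5.38, 3.99 and 4.52 in CON mice. Replicates 1, 2 and 3 of SPIO lay above every CON mouse in both genes, and replicates 4 and 5 lay within the CON range. Replicate 3 is the array with the low Y-linked mean.

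Msln differed by 0.94 at 24 h (SE 0.5, 95% CI -0.06 to 1.93, limma adjusted p = 0.17, exact permutation p = 0.071). Upk3b differed by 1.12 (SE 0.76, adjusted p = 0.31 by limma), Lrrn4 by 1.04 (SE 0.61, adjusted p = 0.22) and Muc16 by 0.55 (SE 0.33, adjusted p = 0.23). At this time 23.9% of all genes were called, and the members were not among them.

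At 0 h, right after exposure, the largest fitted difference was in Upk3b. Its values were 5.69, 8.81, 8.93, 9.73 and 8.08 in SPIO mice, against 5.56, 7.17, 9.33, 8.45 and 3.91 in CON mice. Both arms thus held mice with high and with low values. The difference was 1.36 (SE 0.76, 95% CI -0.16 to 2.89), with an adjusted p = 0.34 by limma and an exact permutation p = 0.28. Wt1, the transcription factor, differed by 0.45 at 0 h (SE 0.24, limma adjusted p = 0.32). Single mice set the size of both. The Upk3b difference was 0.62 without replicate 5 of CON and 2 without replicate 1 of SPIO. The Wt1 difference was 0.14 without replicate 4 of SPIO and 0.68 without replicate 1 of SPIO.

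At 48 and 96 h the differences of Msln, Upk3b and Lrrn4 were smaller than at the other times. Msln differed by -0.29 at 48 h and 0.57 at 96 h, Upk3b by -0.7 and 0.54, and Lrrn4 by -0.47 and 0.39, with adjusted p-values of 0.61 or more by limma. Without replicate 1 of SPIO at 48 h the differences at that time were -0.08 (Msln), -0.29 (Upk3b) and -0.25 (Lrrn4). Without replicate 3 of SPIO, Msln differed by -0.46. Without replicate 2 of CON, Upk3b differed by -0.95 and Lrrn4 by -0.67. The groups of Gpm6a at 48 h were narrow. It was 9.44, 9.57, 9.73, 9.64 and 9.38 in SPIO mice, against 10.09, 9.89, 10.04, 9.78 and 9.65 in CON mice, so that only CON replicate 5 fell below the highest SPIO mouse. Its difference was -0.34 (SE 0.17, 95% CI -0.68 to 0.01), with an adjusted p = 0.2 by limma and an exact permutation p = 0.016.

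**Figure D2:**
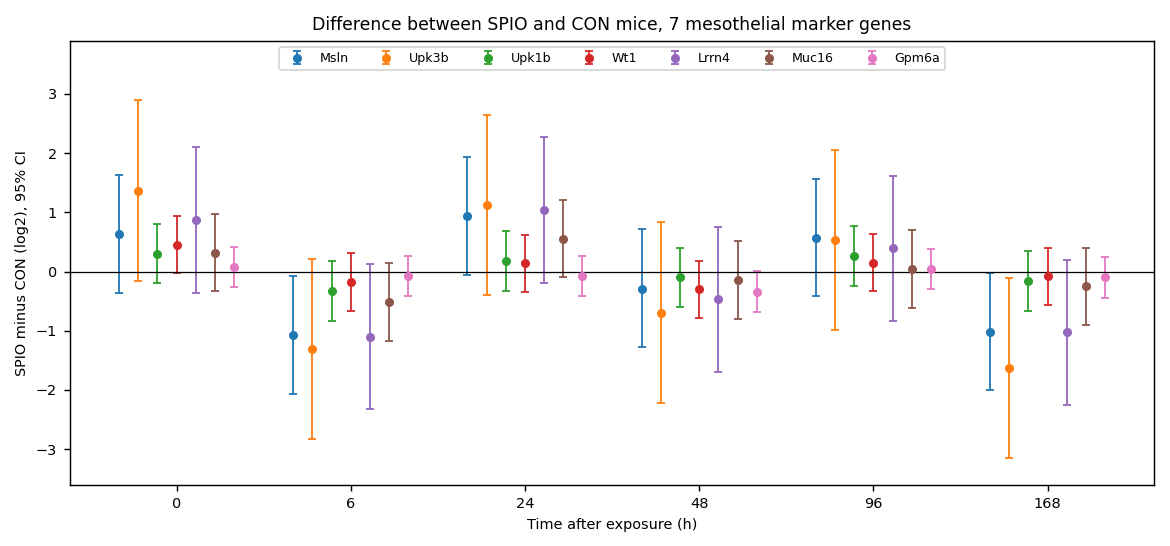
Difference SPIO minus CON (log2) of each of the 7 genes at each time after exposure (h), with the 95% confidence interval from limma (5 mice per arm). The signs turn between times in the same way for 6 of the 7 genes, while Gpm6a stays below 0 from 6 to 48 h, and the intervals of Msln at 6 h and of Msln and Upk3b at 168 h leave out 0 before adjustment over all genes.

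The width of the intervals sets what could be seen. A 95% interval reached 1.52 on either side of the estimate for Upk3b, a 2.87-fold change, 1.23 for Lrrn4 (2.34-fold) and 1 for Msln (1.99-fold). For Gpm6a it reached 0.34 (1.27-fold). Differences smaller than these could not be told from 0 for these genes with 5 mice per group, even before adjustment over all genes. Larger ones could still fail after it. Upk3b at 168 h (-1.63) and Msln at 6 h (-1.07) exceeded these widths, yet their limma adjusted p-values were 0.26 and 0.36.

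Further probe sets of 3 members were read as a check on the chosen ones. The 2 probe sets of Upk3b followed each other across mice (r = 0.98), and the other one of Gpm6a followed its main one at r = 0.87. The other 3 of Upk1b followed the main one at r = 0.71 to 0.81, but differed by more between SPIO and CON at 0, 6, 24 and 168 h. Their differences were 0.43 to 0.75 at 24 h, against 0.18, and -0.53 to -0.4 at 168 h, against -0.16. At 48 and 96 h they lay on both sides of the main one. Their residual SDs were 0.6, 0.59 and 0.44, against 0.41. In a fit over all probe sets, 0 of the 12 probe sets of members were called at 0, 6, 24, 96 and 168 h, where 2.63%, 2.27%, 16.4%, 4.96% and 3.51% of all probe sets were called. At 48 h 1 of the 12 was called, 1426442_at of Gpm6a, against 7.35% of all probe sets. It was lower in SPIO by 0.71 on the log2 scale with a limma adjusted p = 0.021, while the main probe set of Gpm6a had an adjusted p = 0.25 in that fit.

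Whether the exposure effect differed between times was tested by an F test of the 5 later effects against the effect at 0 h. It called 0 of 7 members and 8.77% of all genes. The lowest adjusted p of the members was 0.095, for Msln (unadjusted p = 0.015), and Upk3b followed at 0.12 (unadjusted p = 0.023). The turning signs described above therefore did not pass the test of a difference between times.

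Times within 1 arm were tested in the same way. In the SPIO arm 0 of 7 members and 7.13% of all genes passed, and the lowest adjusted p was 0.074, for Gpm6a. Without replicate 1 of CON at 0 h, which enters only through the shared spread and the adjustment, Gpm6a passed at an adjusted p = 0.049. In the CON arm 0 of 7 members passed, where 41% of all genes did, with Gpm6a lowest at an adjusted p = 0.084.

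Ordered by group mean, 4 members were lowest in SPIO at 168 h and highest in CON at 6 h. These were Msln (6.22 ± 0.7 and 7.86 ± 1.05, SD, n = 5 each), Upk3b (6.14 ± 1.16 and 8.6 ± 1.2), Lrrn4 (4.73 ± 0.82 and 6.73 ± 1.36) and Muc16 (4.56 ± 0.35 and 5.42 ± 0.72). Wt1 was lowest in SPIO at 48 h (4.89 ± 0.13) and highest in SPIO at 0 h (5.69 ± 0.81). Upk1b was lowest in CON at 96 h (5.93 ± 0.5) and highest in SPIO at 0 h (6.59 ± 0.54). Gpm6a was lowest in SPIO at 48 h (9.55 ± 0.14) and highest in CON at 6 h (10.28 ± 0.31). No 2 neighbouring groups in any of these orders differed by more than 0.88 of the standard error of a difference.

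The members rose and fell together from mouse to mouse. After the mean of each group was removed, all 21 pairs of members were positively correlated over the 60 mice, with Pearson's r between 0.35 and 0.96 and Spearman's rho between 0.31 and 0.97, and the median r was 0.72. The mice share a platform and a normalization, and the removal of 12 group means leaves 48 degrees of freedom. In 12 mice all 7 members lay above their group mean and in 11 mice all 7 lay below it. In 46 of 60 mice at least 6 of the 7 were on the same side.

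The pair of Upk3b and Lrrn4 was the closest, with r = 0.96 and rho = 0.97, at r = 0.98 in SPIO mice and r = 0.94 in CON mice. Msln followed Upk3b at r = 0.92 (rho = 0.92) and Lrrn4 at r = 0.9 (rho = 0.88). Msln and Muc16, whose proteins bind each other, were correlated at r = 0.87 (rho = 0.87). In either arm alone these 4 pairs had r between 0.85 and 0.98.

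Wt1 was correlated with the other members at r = 0.56 (Gpm6a) to 0.76 (Lrrn4). Upk1b was correlated with Msln at r = 0.77 and with its fellow uroplakin Upk3b at r = 0.67. Gpm6a was the loosest member, at r = 0.35 with Upk1b to 0.68 with Lrrn4. Permuting the mice within groups 1e+05 times gave the smallest p it can give, 1e-05, for r in 17 of 21 pairs and for rho in 15. The highest p was 0.01 for r and 0.026 for rho, in both cases for Upk1b and Gpm6a, whose r was 0.29 without the 2 mice farthest from the median. Upk3b and Lrrn4 kept r = 0.96 without the 2 farthest mice.

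**Figure D3:**
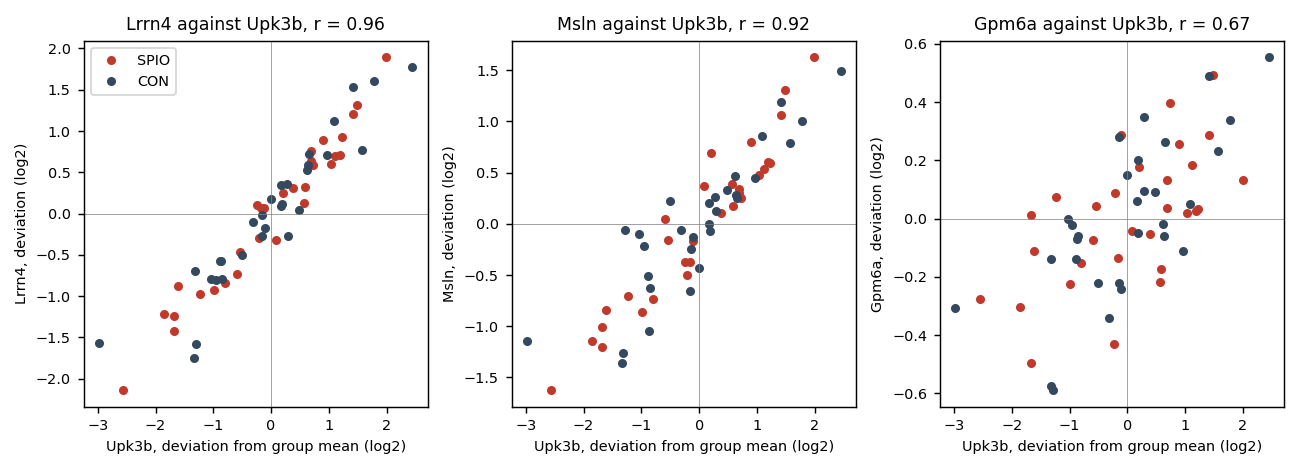
Deviation of Lrrn4, Msln and Gpm6a from the group mean (log2, y axes) against that of Upk3b (log2, x axis) in each of 60 mice, SPIO red and CON dark blue. SPIO and CON mice lie on the same band, with r = 0.96 for Lrrn4, r = 0.92 for Msln and r = 0.67 for Gpm6a.

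A score was made for each mouse as the mean of the 7 members' deviations, each divided by its residual SD. It was highest in replicate 4 of SPIO at 0 h (1.8), replicate 1 of SPIO at 6 h (1.77) and replicate 3 of CON at 0 h (1.74), and lowest in replicate 1 of SPIO at 0 h (-1.7), replicate 5 of CON at 0 h (-1.4) and replicate 4 of CON at 6 h (-1.32). Each group's scores sum to 0, so that they rank mice within a group only.

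The 10 genes outside the members whose values followed this score most closely were Aldh1a2 (r = 0.92), Calcb (0.91), Bnc1 (0.9), Slurp1 (0.87), C2 (0.85), Sfrp2 (0.83), Sbsn (0.82), Igfbp5 (0.82), Sfmbt2 (0.8) and Rarres2 (0.77), and the gene just outside had r = 0.76. Across all 18186 other genes the 5th and 95th percentile of r were -0.24 and 0.25. Aldh1a2 makes retinoic acid, Bnc1 is a zinc finger protein, Calcb encodes a calcitonin gene-related peptide, and Slurp1 encodes a small secreted protein. C2 is a complement component, Sfrp2 a secreted binder of Wnt ligands, Igfbp5 a binding protein of insulin-like growth factors, and Rarres2 the precursor of chemerin. Sbsn encodes suprabasin, a secreted protein of the epidermis, and Sfmbt2 a Polycomb group protein. In each arm alone the 10 correlations were at least 0.73.

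Of these 10 genes 1 passed at 24 h, where 23.9% of all genes did. It was Igfbp5, higher in SPIO by 0.58 with a limma adjusted p = 0.044. The call was lost in 6 of 10 fits that left out 1 mouse, replicate 3 of SPIO among them, and in 4 of 9 other alternatives, and the mean of its probe sets differed by 0.25 (adjusted p = 0.27). The other 9 did not pass at any time. Aldh1a2 differed by 0.84, -0.7, 0.32, -0.49, 0.28 and -0.23 from 0 to 168 h, the same signs as Msln, and Calcb, Bnc1, Slurp1 and C2 had these signs too. The other 5 departed from them at 1 time each, Sbsn (0.08), Igfbp5 (0.2) and Sfmbt2 (0.17) at 48 h and Sfrp2 (-0.02) and Rarres2 (-0.13) at 96 h. The 10 genes were chosen because they followed the members across these same mice. Their signs are therefore not observations separate from those of the members.

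A further list of 16 genes known from mesothelial cells, all measured, followed the score as a mean, at r = 0.89 (rho = 0.87), but its genes did so unequally. In 4 of the 16 the correlation with the score reached 0.5, namely Aldh1a2, Bnc1, Rspo1 (r = 0.74), an enhancer of Wnt signalling, and Krt14 (r = 0.62), a keratin. The keratins Krt7, Krt8, Krt18 and Krt19, which airway and alveolar epithelium also make, had r between 0.08 and 0.18, and Itln1, a secreted lectin, had r = -0.29.

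Members of the further list that passed limma's test did so at 24 and 48 h. At 24 h 3 of 16 passed, with Nkain4 higher in SPIO by 0.43 (adjusted p = 0.029), Igfbp6, a binding protein of insulin-like growth factors, higher by 0.42 (adjusted p = 0.047), and Calb2, the calcium-binding protein calretinin, with a difference of -0.46 (adjusted p = 0.026). Calb2 was low on every array, with a mean of 4.23 and a highest value of 5.04, below the lowest array median of 5.54. At 48 h 2 of 16 passed, with Igfbp6 higher by 0.55 (adjusted p = 0.016) and Efemp1, an extracellular matrix protein, at -0.48 (adjusted p = 0.012). These shares are near the 23.9% and 12.5% of all genes at the same times, and at the other 4 times 0 of 16 passed. Leaving out 1 mouse ended the call of Nkain4 in 5, of Igfbp6 at 24 h in 8 and of Calb2 in 5 of 10 fits, and at 48 h that of Igfbp6 and of Efemp1 in 2 of 10 each. Other alternatives ended the call of Igfbp6 at 24 h in 6 of 9 and of Nkain4 and Efemp1 in 1 of 9 each.

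Marker lists of the other cells that a lung lobe or its surroundings could hold were at most loosely related to the mesothelial score. The mean of each list was correlated with the score over the 60 mice at r = 0.25 for alveolar type 2 cells, -0.07 for alveolar type 1 cells, -0.23 for endothelium, 0.09 for fibroblasts, 0 for smooth muscle, 0.01 for adipose tissue, 0.04 for cardiac muscle, -0.11 for skeletal muscle, -0.33 for hepatocytes, 0.01 for urothelium and 0.06 for thymus and lymph node. In none of these 11 lists did a single gene reach r = 0.5. The hepatocyte list lay below -0.24, the 5th percentile of r over all other genes, and had r = -0.3 without replicate 1 of CON at 0 h. The urothelium list (Upk1a, Upk2, Upk3a and Krt5, all 4 measured) had a mean level of 5.32 to 5.98 over all mice.

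Several lists of tissue next to the lung were themselves widely spread between mice. The median residual SD was 2.28 for cardiac muscle, 1.22 for hepatocyte, 0.79 for adipose and 0.67 for skeletal muscle genes. It was 0.54 for the mesothelial members but 0.25 for the further list of 16 mesothelial genes. The other lists had 0.35 (smooth muscle), 0.33 (fibroblast), 0.22 (urothelium), 0.21 (thymus and lymph node), 0.17 (endothelium), 0.12 (alveolar type 1) and 0.1 (alveolar type 2). The mean cardiac level was highest in replicate 5 of CON at 6 h (11.54) and lowest in replicate 4 of that group (5.14). Replicate 1 of CON at 0 h had the highest mean level of the hepatocyte (11.59), adipose (9.01) and skeletal muscle (7.72) lists. At later times the highest was 8.89 for hepatocyte (CON at 96 h) and 5.53 for skeletal muscle genes (CON at 6 h). That array thus adds to the spread of these lists, and their SDs were not computed without it.

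**Figure D4:**
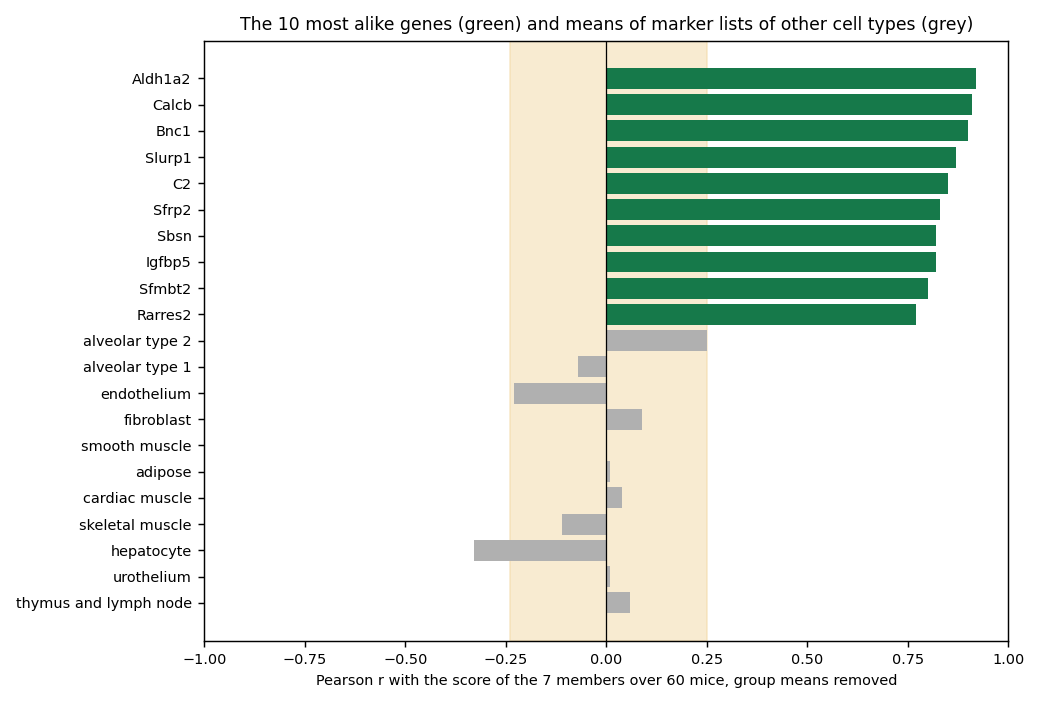
Pearson r with the score of the 7 members over 60 mice, with group means removed, for the 10 most alike genes (green) and for the mean of 11 marker lists of other cell types (grey), and a shaded band from the 5th to the 95th percentile of all other genes. The 10 genes lie between 0.77 and 0.92, and the lists between -0.33 and 0.25.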

How the data were processed

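Arrays of 60 mouse lungs, 5 per group, were compared. The authors normalized Affymetrix arrays by RMA and deposited the resulting log2 values. The version of RMA was not given in the sources used here. Each of the 60 columns was matched to its mouse by label. The 64 control probe sets were left out, and probe sets with several gene symbols (932) or none (9160) entered only the fit over all probe sets. Groups were compared in R 4.3.3 by limma 3.58.1 in 1 fit over 12 groups, with Benjamini-Hochberg adjustment over 18193 genes, an adjusted p under 0.05 and no fold minimum. Exact permutation tests were two-sided. The number of arrays limits the precision, and RMA gives no detection call.

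The members, the lists and the rule for named genes were chosen with earlier results of these data known. The text names all 7 members, the 10 genes most like them, and further mesothelial genes that passed a test or had the highest r. The notes on Krt7, Krt8, Krt18, Krt19 and Itln1 were chosen after their values were seen. The alternatives were to fit all probe sets or their mean per gene, to keep only genes that reached 6 (log2) on 5 or more arrays, to quantile normalize again or centre each array on its median, to fit each time alone, to moderate with trend and robust options, to weight arrays, to add the replicate number as a block, to use the methods' test and to leave out each mouse in turn. The limma fit and the methods' test were tested on simulated data; the permutation tests were not. The plots were made in Python 3.11.15 with matplotlib 3.10.9.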

Additional observations from a re-analysis of the deposited data

Results flagged for a closer look

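Single mice stood far from the other 4 of their group in 3 of the 84 combinations of member and group, where chance alone flags about 1 in 20. Wt1 was 6.45 in replicate 1 of SPIO at 6 h, against 4.93 to 5.26 in the others. The same mouse had the highest values of its group for all other members. Lrrn4 was 6.76 in replicate 3 of CON at 96 h, against 4.57 to 5.19, and Upk1b was 5.06 in replicate 5 of CON at 96 h, against 5.94 to 6.22. Replicate 3 was also the highest of its group for Msln (7.54) and Upk3b (8.67), and replicate 5 the lowest for Msln (5.49) and Muc16 (3.89).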

How the results depend on the processing

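Of 786 values of single members under the alternatives, 770 kept their direction and their side of the threshold and 16 changed sign, all of them differences between -0.08 and 0.08 in the report. The lowest adjusted p was 0.052, for Gpm6a at 48 h with array weights. Gpm6a turned to -0.01 at 0 h and -0.04 at 96 h with the mean of its probe sets, and to -0.08 at 0 h with array weights. Leaving out 1 mouse gave -0.07 to 0.22 for Gpm6a at 0 h, -0.16 to 0.05 at 6 h, -0.14 to 0.05 at 24 h and -0.06 to 0.15 at 96 h, -0.15 to 0.23 for Muc16 at 96 h and -0.15 to 0.03 for Wt1 at 168 h. The median difference of the members kept its sign without any 1 mouse, at 0.14 to 0.68, -0.75 to -0.24, 0.31 to 0.83, -0.38 to -0.23, 0.15 to 0.39 and -0.37 to -0.14 from 0 to 168 h. With the filter on low values, which removed Wt1 and Muc16, the median of the remaining 5 members was -1.07 at 6 h, 0.94 at 24 h and -1.02 at 168 h. Array weights gave a median of 0.16 at 0 h, and averaging the probe sets of each gene -0.39 at 168 h. Members called stayed at 0 at each time, except 1 at 48 h with all probe sets (Gpm6a) and 1 in the SPIO arm over time without CON 0 h replicate 1 (Gpm6a). The median r of the pairs was 0.72 under all 4 alternatives run for it. Among other genes, the 24 h calls were lost without CON replicate 1, 4 or 5 or SPIO replicate 1, 2 or 3 for Igfbp5 (0.43 to 0.7), CON 3, 4 or 5 or SPIO 2 or 4 for Nkain4 (0.35 to 0.5), CON 3 or 5 or SPIO 1, 2 or 4 for Calb2 (-0.54 to -0.39), and any mouse but CON 4 or SPIO 5 for Igfbp6 (0.34 to 0.46). At 48 h they were lost without CON 3 or SPIO 5 for Igfbp6 (0.5 to 0.62) and CON 1 or 3 for Efemp1 (-0.59 to -0.36). Igfbp5 also lost its call with all probe sets (adjusted p = 0.057), the mean of its probe sets (0.25, adjusted p = 0.27), quantile normalization (adjusted p = 0.063) and each time fitted alone (adjusted p = 0.071). Igfbp6 at 24 h lost it, at adjusted p-values of 0.052 to 0.061, with all probe sets, their mean, quantile normalization, median centring, array weights and the replicate block. Nkain4 lost it with quantile normalization (adjusted p = 0.11) and Efemp1 with each time fitted alone (adjusted p = 0.14).

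The number of all genes called depended on the alternative: 138 to 1527 at 0 h (667 in the report's fit), 98 to 847 at 6 h (212), 2103 to 4815 at 24 h (4356), 1021 to 4948 at 48 h (2283), 96 to 820 at 96 h (256) and 57 to 763 at 168 h (398). The lowest came with each time fitted alone (at 24 h the methods' test) and the highest with array weights (at 96 h averaging the probe sets of each gene). The fit over 45037 probe sets called 1184, 1021, 7378, 3312, 2232 and 1580 probe sets, which are not gene counts. Leaving out 1 mouse gave 290 to 782, 98 to 291, 3099 to 4786, 1485 to 3021, 81 to 337 and 100 to 665. Deviations of mice with the same replicate number correlated at -0.51 to 0.47, with 7 of 30 above 0.1. No consistent pairing by number was seen, but a weak shared factor could give such values too. The labels do not say what the number stands for. The replicate block gave 652, 224, 4326, 2263, 263 and 400 genes and 0 members, with member medians of 0.45, -0.51, 0.55, -0.3, 0.26 and -0.25.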
